A study of Caenorhabditis elegans with 6 samples.

Results

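The 48 genes described here are the insulin-like peptide genes of Caenorhabditis elegans and the core of the pathway through which they act. They were taken by name from the deposited gene table: the 39 rows named ins- and a number, the ligand gene daf-28, and the 8 pathway genes daf-2, age-1, pdk-1, akt-1, akt-2, sgk-1, daf-18 and daf-16. These 40 ligand genes and 8 core genes are 48 of the 22416 genes that carry counts. The rule uses gene names and no measured value.

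The study sequenced messenger RNA from pools of whole worms of strain CL2006. Every pool carried pCL12, an unc-54/human Abeta peptide minigene that is expressed in body wall muscle from the unc-54 promoter, together with the marker plasmid pRF4. In 1 group, 3 pools were fed HT115 bacteria carrying RNAi against the 3′UTR of gtr-1, a G protein-coupled receptor gene, and in the other, 3 pools were fed HT115 with an empty vector (EV). All worms were grown at 20 °C for 2 generations on the same bacteria, were washed daily to remove progeny and were collected at day 6 of adulthood. Each group has 1 library in each of the batches 2, 3 and 4 that the labels name, and no pools without the Abeta transgene were used here.

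Insulin-like peptides are small secreted proteins, made in worms by a large gene family with members in neurons, intestine and other tissues. They bind DAF-2, the only insulin/IGF receptor of the worm, and reported agonists activate it while reported antagonists oppose them. The active receptor signals through the PI3 kinase AGE-1 and the kinases PDK-1, AKT-1, AKT-2 and SGK-1 to keep the FOXO transcription factor DAF-16 out of the nucleus, and the lipid phosphatase DAF-18 counters AGE-1. The pathway is known for its control of dauer arrest, fat storage, stress resistance and lifespan, and reduced signalling protects worms that express Abeta.

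The libraries labelled as gtr-1 RNAi held 49467499, 59812227 and 54515832 counts in batches 2, 3 and 4, and the EV libraries held 49990861, 43067539 and 48512260. The targeted gene gtr-1 (WBGene00017779, X:802778-804269, WBcel235) had 38, 26 and 11 counts in the libraries labelled as gtr-1 RNAi, against 32, 16 and 12 in the EV libraries. The groups overlapped, and gtr-1 stood higher in the library labelled gtr-1 RNAi in 2 of the 3 batches. Its mean was 0.461 ± 0.247 CPM (counts scaled to library size) in the libraries labelled as gtr-1 RNAi and 0.408 ± 0.166 CPM in EV libraries (SD, n = 3 each). The log2 fold change was 0.13 ± 0.30 (SE; 95% interval -0.64 to 0.89; edgeR quasi-likelihood test with the batch as a block, adjusted p = 0.886). An exact two-sided permutation test over the samples, which ignores the batch pairs, gave p = 0.8, where the smallest it allows is 0.1. An exact test by sign flips over the batch pairs gave p = 0.5, where the smallest it allows is 0.25. A reduction of gtr-1 RNA was not detectable in these counts, and the treated group is named by its label throughout. Batch 2 stood apart in both groups.

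No insulin-like peptide gene or core gene differed when the libraries labelled as gtr-1 RNAi were set against EV at an adjusted p under 0.05. Of the 34 members that passed the low-count filter (26 ligands and all 8 core genes), edgeR called 0 higher and 0 lower, against 0.0902% higher and 0% lower of the 15519 genes tested. DESeq2 also called 0 and 0 members, against 1.57% higher and 0.619% lower of all genes. At an unadjusted p under 0.05, edgeR had 0 members higher and 1 lower, ins-19, against 4.99% higher and 5.68% lower of all genes. Of the 34 members, 13 had a log2 fold change above 0 and 21 below, where 41.6% of all genes lay above 0, and the log2 fold changes had a median of -0.05 over the members and -0.03 over all genes. The sign was the same in all 3 batch pairs for 4 members upward and 5 downward, against 13.5% upward and 22.6% downward of all genes. The CPM of the groups did not overlap for 0 of the 34 in either direction, against 2.92% higher and 3.07% lower of all genes.

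The ligands were low transcripts in these whole-worm pools. Their counts summed to 62.5, 56.7 and 47.2 CPM in the libraries labelled as gtr-1 RNAi and to 61.6, 71.9 and 63.0 CPM in the EV libraries of batches 2, 3 and 4. The 8 core genes summed to 1222, 1700.4 and 1774 CPM in the libraries labelled as gtr-1 RNAi and to 1288, 1723 and 1758 CPM in EV libraries. Per kilobase of exon, ins-19 was the highest ligand, with a mean of 32.9 CPM per kb over the 6 libraries, and ins-7 was next with 22.9 CPM per kb. The order of those top ligands did not hold in every library: ins-19 lay above ins-7 in 3 of 6 libraries and ins-7 above ins-17 in 5 of 6. After them came ins-17 at 11.8 and ins-34 at 10.4 CPM per kb, with ins-17 the higher in 4 of 6 libraries, and ins-34 lay above the next, ins-2 at 5.80, in 6 of 6. Of the core, daf-18 was the highest at 216 CPM per kb, followed by akt-1 (96.2), daf-16 (57.1), age-1 (31.4), daf-2 (27.7), pdk-1 (16.6), sgk-1 (9.95) and akt-2 (7.95). Each of these core genes lay above the next in 6 of 6 libraries, except pdk-1, which lay above sgk-1 in 5 of 6.

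**Figure D1:**
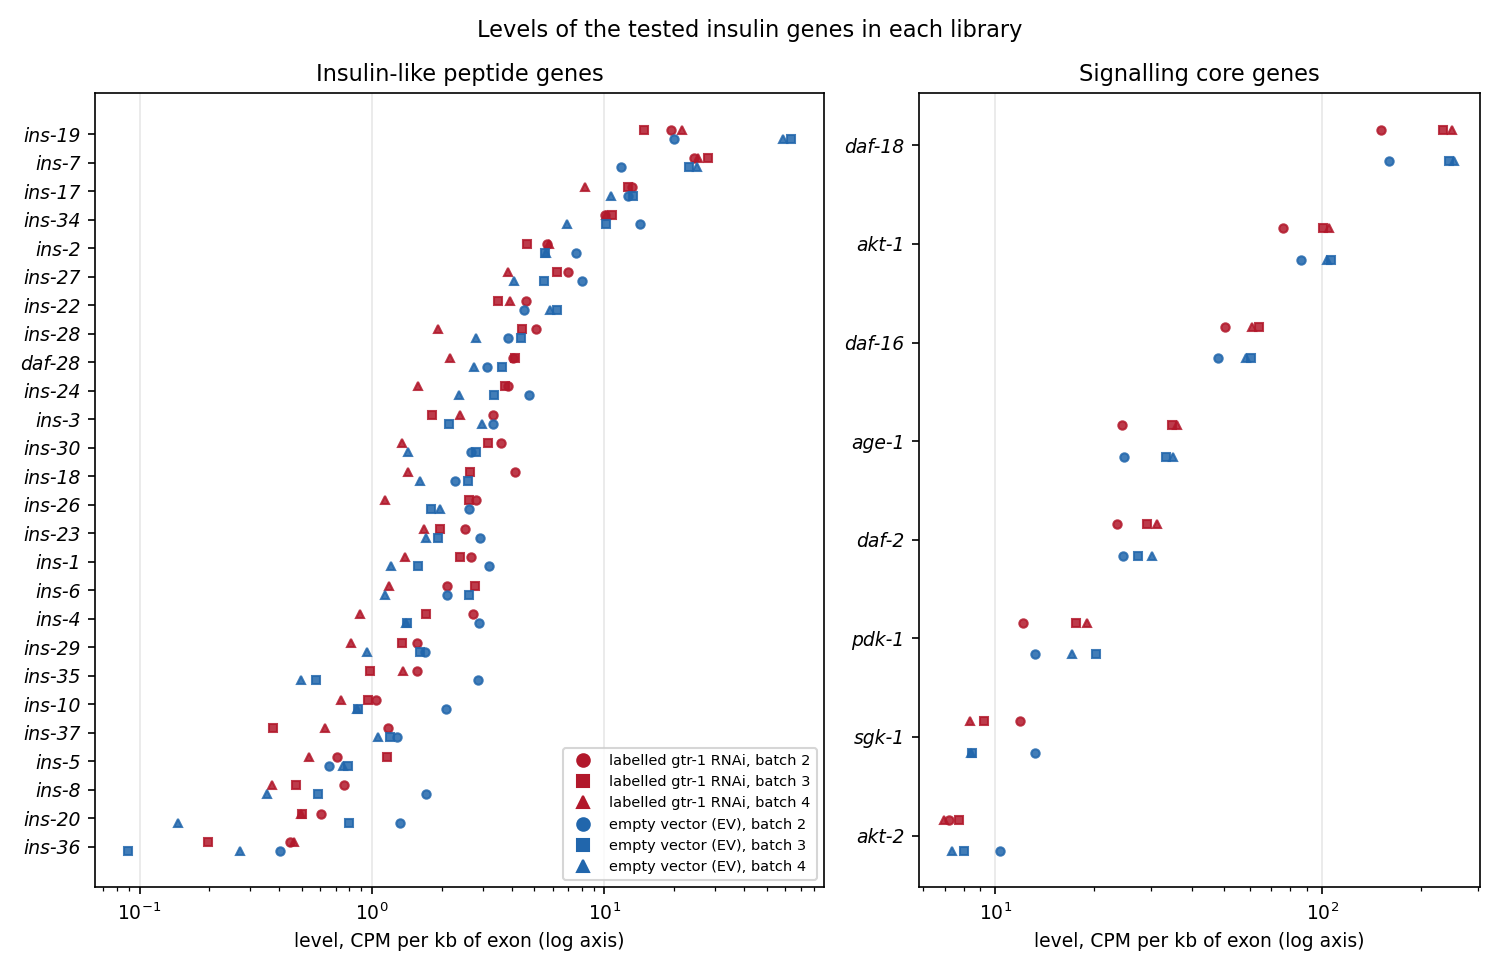
Level of each insulin gene that passed the filter in each library, in CPM per kb of exon on a log axis, with ligands in the left panel and core genes in the right one. Red points are libraries labelled as gtr-1 RNAi, drawn above the blue EV libraries, and marker shapes give the batch. ins-19 is the highest ligand by mean (32.9 CPM per kb) and daf-18 the highest core gene (216 CPM per kb).

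Of the tested ligands, ins-19 had the largest log2 fold change in size and the smallest p. ins-19 (WBGene00002102, II:3126037-3126441, minus strand) had 377, 299 and 407 counts in the libraries labelled as gtr-1 RNAi of batches 2, 3 and 4, against 398, 944 and 1007 in the EV libraries. These are 7.003, 5.34 and 7.84 CPM in the libraries labelled as gtr-1 RNAi and 7.24, 22.9 and 21.2 CPM in the EV libraries. The batch 3 and batch 4 EV libraries were high, and the batch 2 EV library lay between the values of the libraries labelled as gtr-1 RNAi, so the groups overlapped. The means were 6.73 ± 1.27 CPM in the libraries labelled as gtr-1 RNAi and 17.1 ± 8.60 CPM in EV libraries (SD, n = 3 each), and the log2 fold change was -1.21 ± 0.40 (SE; 95% interval -2.23 to -0.19), a fold of 0.433. The edgeR p of 0.0283 became 0.407 after adjustment over all genes, and DESeq2 gave an adjusted p of 0.581. Only 79 of the 15519 tested genes had a lower log2 fold change than ins-19, while 1078 genes had a smaller p.

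The size and the call of the difference in ins-19 depended on which libraries were kept. Its log2 ratio within batches 2, 3 and 4 was -0.05, -2.09 and -1.43. Without the batch 2 pair, the log2 fold change of ins-19 was -1.76 with an edgeR adjusted p of 0.00117, in a fit that called 2.77% of all genes lower. Without the batch 2 library labelled gtr-1 RNAi alone the adjusted p was 0.00709 (1.59% of all genes lower), and without the batch 2 EV library alone it was 0.00291 (2.18% lower), each with a log2 fold change of -1.76. Where 1 batch 2 library is left out, the batch term absorbs the other, so all 3 fits rest on the same 4 libraries of batches 3 and 4. These fits have fewer residual degrees of freedom than the main fit, and their adjusted p lean on variances shared across genes. Leaving out libraries of batch 3 moved ins-19 the other way: the log2 fold change was -0.75 without the batch 3 pair (edgeR adjusted p = 0.353), -0.75 without the batch 3 library labelled gtr-1 RNAi (0.987) and -0.69 without the batch 3 EV library (0.9997). Without the batch 4 pair it was -1.08 (edgeR adjusted p = 0.921). Of all ligand counts, ins-19 made up 11.2%, 9.42% and 16.6% in the libraries labelled as gtr-1 RNAi and 11.8%, 31.9% and 33.6% in the EV libraries. With ins-19 and ins-7 left out, the other ligands summed to 45.3, 39.6 and 28.7 CPM in the libraries labelled as gtr-1 RNAi and to 49.4, 39.2 and 31.2 CPM in EV libraries, which overlapped.

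ins-7, a ligand reported as an agonist of DAF-2 in lifespan assays and expressed in the intestine and in neurons, stood higher in all 3 libraries labelled as gtr-1 RNAi than in their batch partners. It had 10.3, 11.8 and 10.7 CPM in the libraries labelled as gtr-1 RNAi, against 4.95, 9.75 and 10.6 CPM in the EV libraries. The low value was that of the batch 2 EV library, and the batch 4 libraries were nearly equal, at 10.7 CPM in the one labelled gtr-1 RNAi and 10.6 CPM in EV. The log2 fold change was 0.44 ± 0.22 (SE; 95% interval -0.12 to 1.00; edgeR adjusted p = 0.541), and the log2 ratios within batches 2, 3 and 4 were 1.04, 0.27 and 0.01. Without the batch 2 pair the log2 fold change of ins-7 was 0.14 (edgeR adjusted p = 0.589). Summed CPM of the 9 intestine markers with counts were also higher in each library labelled gtr-1 RNAi than in its batch partner, at 2784, 2206 and 1913, against 2259, 1675 and 1456 in EV libraries. Of those markers 8 of 9 had a log2 fold change above 0, against 41.6% of all genes. At an unadjusted p under 0.05 by edgeR 4 were higher, against 4.99% of all genes, and 0 at an adjusted p under 0.05. DESeq2 called 3 higher, against 1.57% of all genes. Of 10 neuron markers 4 lay above 0, with a median of -0.01, and 0 were called by either tool. The part of either tissue in the value of ins-7 was not tested. In these pools of whole worms, a change in the number or share of cells of a type cannot be told apart from a change in RNA per cell.

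**Figure D2:**
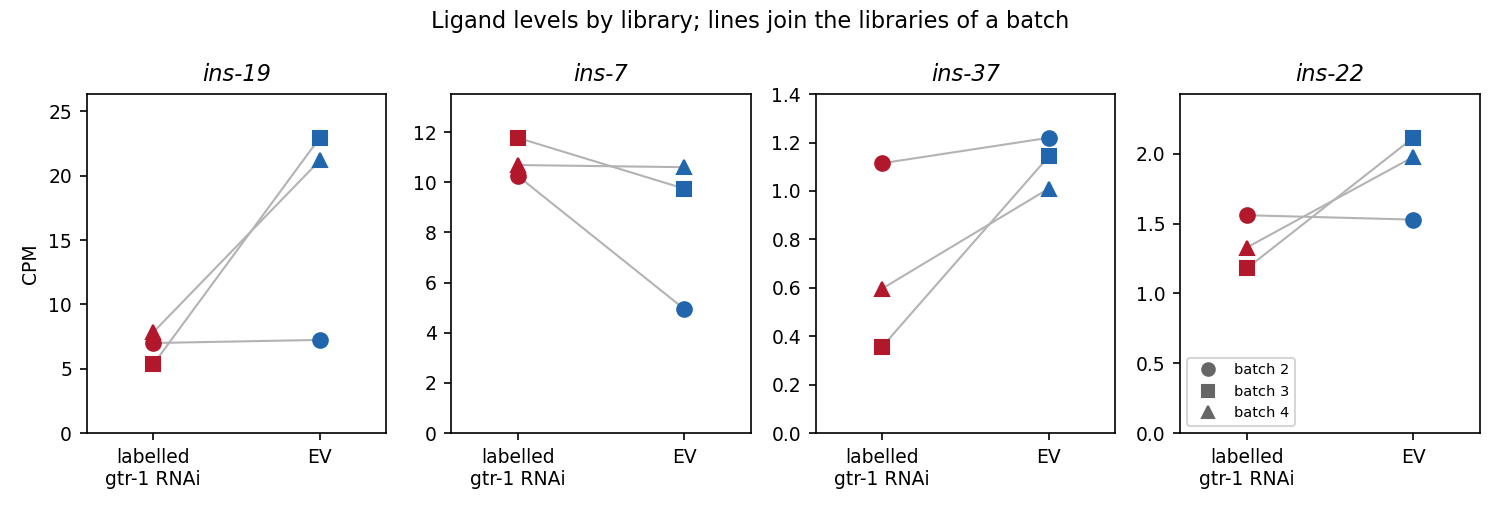
CPM of ins-19, ins-7, ins-37 and ins-22 in each library, with the libraries labelled as gtr-1 RNAi on the left of each panel, the EV libraries on the right and lines joining libraries of the same batch. ins-19 has 7.003 and 7.24 CPM in the batch 2 libraries, while the EV libraries of batches 3 and 4 reach 22.9 and 21.2 CPM.

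Other ligands reported as agonists showed no common direction. daf-28 (WBGene00000920, V:19815133-19816454), a neuronal ligand that opposes dauer arrest, had 3.08, 3.16 and 1.66 CPM in the libraries labelled as gtr-1 RNAi and 2.40, 2.77 and 2.104 CPM in EV libraries. These overlapped, and daf-28 had a log2 fold change of 0.08 ± 0.21 (SE, adjusted p = 0.908 by edgeR). ins-6, which acts with daf-28 in dauer decisions, had 1.10, 1.45 and 0.616 CPM in the libraries labelled as gtr-1 RNAi and 1.09, 1.36 and 0.589 CPM in EV libraries. Its log2 ratio was 0.00, 0.09 and 0.06 in batches 2, 3 and 4, and the edgeR adjusted p was 0.943. ins-4 had 1.60, 1.00 and 0.520 CPM in the libraries labelled as gtr-1 RNAi and 1.69, 0.826 and 0.820 CPM in EV libraries, and ins-3 had 1.95, 1.07 and 1.41 CPM in the libraries labelled as gtr-1 RNAi and 1.95, 1.26 and 1.75 CPM in EV libraries. Both overlapped between groups, with log2 fold changes of -0.14 ± 0.27 for ins-4 and -0.18 ± 0.20 for ins-3 (SE, adjusted p = 0.865 and 0.762 by edgeR). ins-35 changed order between batches, with 0.594, 0.375 and 0.520 CPM in the libraries labelled as gtr-1 RNAi and 1.09, 0.219 and 0.189 CPM in EV libraries. Its log2 ratios were -0.84, 0.68 and 1.29 in batches 2, 3 and 4, and the log2 fold change was 0.30 ± 0.53 (SE, adjusted p = 0.85 by edgeR). Without the batch 2 pair the log2 fold change of ins-35 was 1.13 (edgeR adjusted p = 0.171), and without the batch 4 pair it was -0.20 (0.984). The 6 ligands listed here as reported agonists include ins-7. They summed to 18.6, 18.8 and 15.4 CPM in the libraries labelled as gtr-1 RNAi and to 13.2, 16.2 and 16.1 CPM in EV libraries. Of these sums ins-7 alone gave 10.3, 11.8 and 10.7 CPM in the libraries labelled as gtr-1 RNAi and 4.95, 9.75 and 10.6 CPM in EV libraries. Of the 6, 4 lay above 0, against 41.6% of all genes, with a median log2 fold change of 0.06, against -0.03 over all genes.

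The 3 ligands listed here as reported antagonists of DAF-2 overlapped between groups, and the list may not be complete. ins-17 had 7.32, 7.04 and 4.60 CPM in the libraries labelled as gtr-1 RNAi and 7.03, 7.37 and 5.95 CPM in EV libraries, with a log2 fold change of -0.12 ± 0.14 (SE, adjusted p = 0.762 by edgeR). ins-1, a ligand closely related to human insulin, had 2.14, 1.91 and 1.12 CPM in the libraries labelled as gtr-1 RNAi and 2.57, 1.26 and 0.968 CPM in EV libraries. ins-18 had 1.78, 1.14 and 0.616 CPM in the libraries labelled as gtr-1 RNAi and 0.983, 1.12 and 0.694 CPM in EV libraries. The batch 2 library labelled gtr-1 RNAi was the high one for ins-18, and the batch 2 EV library for ins-1. The log2 fold changes were 0.17 ± 0.25 for ins-1 and 0.26 ± 0.30 for ins-18 (SE, adjusted p = 0.819 and 0.759 by edgeR). Summed, the 3 genes came to 11.2, 10.1 and 6.34 CPM in the libraries labelled as gtr-1 RNAi and to 10.6, 9.75 and 7.62 CPM in EV libraries.

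The remaining ligands among the 8 with the highest mean CPM also overlapped between groups. ins-34 had 5.09, 5.48 and 5.14 CPM in the libraries labelled as gtr-1 RNAi, against 7.21, 5.15 and 3.49 CPM in EV libraries. ins-2 had 3.29, 2.70 and 3.33 CPM in the libraries labelled as gtr-1 RNAi, against 4.37, 3.21 and 3.24 CPM in EV libraries. For ins-34 the EV libraries lay on both sides of the narrow range of the libraries labelled as gtr-1 RNAi, and for ins-2 the batch 2 EV library was the highest. ins-27 had 2.15, 1.93 and 1.19 CPM in the libraries labelled as gtr-1 RNAi, against 2.49, 1.70 and 1.26 CPM in EV libraries, and ins-30 had 2.43, 2.13 and 0.905 CPM in the libraries labelled as gtr-1 RNAi, against 1.80, 1.90 and 0.968 CPM in EV libraries. Both ran low in batch 4 of either group. The log2 fold changes of ins-34, ins-2, ins-27 and ins-30 were 0.04 ± 0.23, -0.21 ± 0.17, -0.04 ± 0.20 and 0.18 ± 0.21 (SE), with edgeR adjusted p of 0.959, 0.682, 0.957 and 0.769.

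ins-37 and ins-22 are named here because their values resembled those of ins-19 once seen. ins-37 (II:13835101-13836107) had 1.11, 0.357 and 0.597 CPM in the libraries labelled as gtr-1 RNAi, against 1.22, 1.14 and 1.01 CPM in EV libraries. ins-22 (III:10026289-10026686) had 1.56, 1.18 and 1.33 CPM in the libraries labelled as gtr-1 RNAi, against 1.53, 2.11 and 1.98 CPM in EV libraries. For both, the batch 2 libraries were close to each other and the EV libraries of batches 3 and 4 were the higher of their pairs. The log2 fold changes were -0.81 ± 0.36 for ins-37 and -0.46 ± 0.25 for ins-22 (SE), with edgeR adjusted p of 0.509 and 0.567. Without the batch 2 pair they were -1.18 for ins-37 and -0.70 for ins-22, with edgeR adjusted p of 0.0905 and 0.139. Both genes were picked for that pattern, so a larger difference without batch 2 follows from the choice. The 22 tested ligands other than ins-19, ins-7, ins-37 and ins-22 had log2 fold changes of -0.58 to 0.56 and edgeR adjusted p of 0.627 to 0.982.

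**Figure D3:**
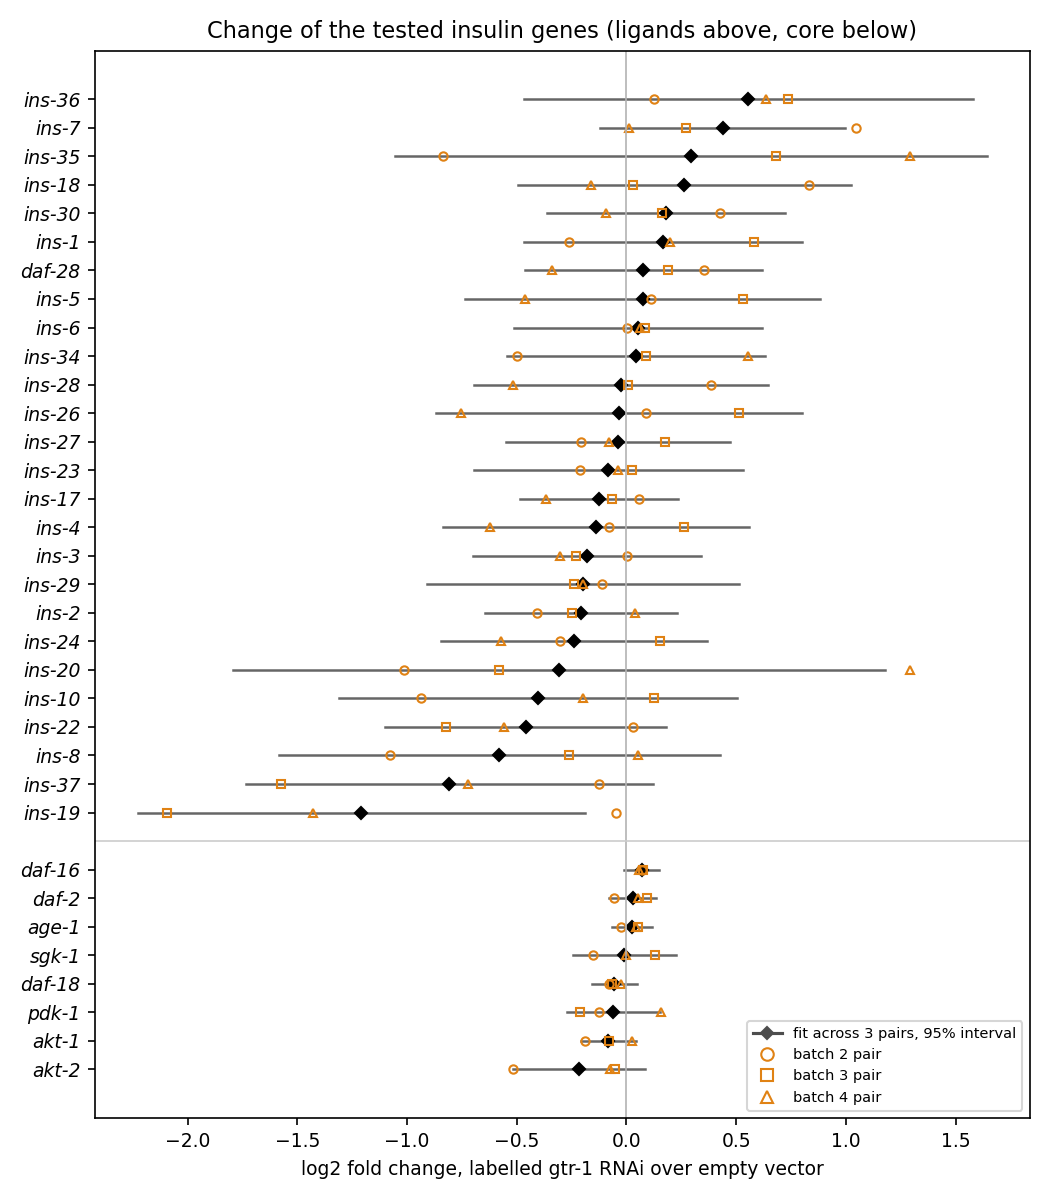
Log2 fold change of each tested insulin gene, libraries labelled as gtr-1 RNAi over EV, with 95% intervals (diamonds and bars) and the log2 ratio within each batch (orange points), with ligands above and core genes below. All adjusted p exceed 0.05, and the intervals of the ligands are wider than those of the core genes.

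The other 14 ligands did not reach the filter, with 1 to 144 counts over all 6 libraries, and 4 of them (ins-13, ins-15, ins-21 and ins-38) had at most 3 counts in any library. A limit of 3 counts corresponds to 0.0536 to 0.0729 CPM in these libraries, so a difference under that level was not detectable at this depth. ins-39 (X:1343758-1344421) had 10, 5 and 5 counts in the libraries labelled as gtr-1 RNAi, against 0, 1 and 2 in EV libraries. ins-11 had 11, 6 and 10 counts in the libraries labelled as gtr-1 RNAi, against 5, 2 and 4 in EV libraries, and ins-12 had 4, 4 and 3 counts in the libraries labelled as gtr-1 RNAi, against 8, 9 and 5 in EV libraries. These 3 genes, singled out after their values had been seen, were the ones below the filter whose CPM did not overlap between groups: 2 of the 14 higher and 1 lower, against 1.98% higher and 3.39% lower of the 5611 genes below the filter. Pooled over libraries and corrected for library size, the count ratio was 5.92 for ins-39 (95% interval 1.76 to 31.1), 2.18 for ins-11 (1.05 to 4.87) and 0.444 for ins-12 (0.194 to 0.955), and these intervals cover counting error only. In a fit with no filter ins-39 had an edgeR p of 0.0473 and an adjusted p of 0.639, where 4.39% of the 21130 genes reached an unadjusted p under 0.05 upward and 3.32% downward. ins-33 showed batch 2 apart from the others in both groups, with 37, 11 and 7 counts in the libraries labelled as gtr-1 RNAi and 76, 7 and 6 in EV libraries.

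Most ligand genes sit in clusters. Joining neighbours within 20000 bp gave 7 clusters, and chromosome II alone carries 16 of the 40 ligands. The cluster on chromosome I (I:14012369-14037777) holds 7 genes, ins-24 to ins-30, of which 6 were tested. Their log2 fold changes ranged from -0.24 to 0.18, and all 6 lay below 0 in the batch 4 pair, 3 in the batch 2 pair and 1 in the batch 3 pair. The cluster of ins-2, ins-3, ins-4, ins-5, ins-6 and ins-20 on chromosome II (II:5988524-6011321) had log2 fold changes of -0.31 to 0.07. ins-19 lies beside ins-31, which had 3, 1 and 0 counts in the libraries labelled as gtr-1 RNAi and 8, 0 and 4 in EV libraries. ins-7 lies beside ins-8 on chromosome IV, and their log2 fold changes had opposite signs, at 0.44 for ins-7 and -0.58 for ins-8.

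The receptor gene daf-2 (III:2994514-3040846) had 196, 242 and 260 CPM in the libraries labelled as gtr-1 RNAi of batches 2, 3 and 4, against 203, 226 and 251 CPM in the EV libraries. The groups overlapped, and both were lowest in batch 2. Means were 232 ± 33.1 CPM in the libraries labelled as gtr-1 RNAi and 227 ± 23.6 CPM in EV libraries (SD, n = 3 each), with a log2 fold change of 0.03 ± 0.04 (SE; 95% interval -0.08 to 0.14; edgeR adjusted p = 0.81). age-1, the PI3 kinase catalytic subunit, had 95.9, 136 and 141 CPM in the libraries labelled as gtr-1 RNAi, against 97.5, 131 and 137 CPM in EV libraries. The libraries of each batch were close to each other, and the log2 fold change was 0.02 ± 0.04 (SE, adjusted p = 0.819 by edgeR).

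Among the kinases downstream, pdk-1, which phosphorylates the AKT kinases, had 29.4, 42.7 and 46.4 CPM in the libraries labelled as gtr-1 RNAi, against 32.1, 49.4 and 41.5 CPM in EV libraries. akt-1 had 173, 229 and 239 CPM in the libraries labelled as gtr-1 RNAi, against 197, 242 and 235 CPM in EV libraries. Both overlapped between groups, with log2 fold changes of -0.06 ± 0.08 for pdk-1 and -0.08 ± 0.05 for akt-1 (SE, adjusted p = 0.808 and 0.592 by edgeR). akt-2, which acts beside akt-1 on DAF-16, had 17.2, 18.4 and 16.7 CPM in the libraries labelled as gtr-1 RNAi, against 24.7, 19.1 and 17.5 CPM in EV libraries. It was lower in each library labelled gtr-1 RNAi than in its batch partner, mostly in batch 2 (log2 ratios -0.52, -0.05 and -0.07), and the groups overlapped. The log2 fold change of akt-2 was -0.21 ± 0.12 (SE; 95% interval -0.52 to 0.09; edgeR adjusted p = 0.568). Without the batch 2 pair it was -0.06 (edgeR adjusted p = 0.773). sgk-1, a kinase of the same family that also acts downstream of TORC2, had 19.5, 15.2 and 13.7 CPM in the libraries labelled as gtr-1 RNAi, against 21.7, 13.9 and 13.8 CPM in EV libraries. It was highest in batch 2 of either group, with a log2 fold change of -0.01 ± 0.09 (SE, adjusted p = 0.98 by edgeR).

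The phosphatase gene daf-18 had 506, 782 and 832 CPM in the libraries labelled as gtr-1 RNAi, against 535, 817 and 846 CPM in EV libraries. It was slightly lower in each library labelled gtr-1 RNAi than in its batch partner, and the spread between batches was larger than that difference. Means were 707 ± 175 CPM in the libraries labelled as gtr-1 RNAi and 733 ± 171 CPM in EV libraries (SD, n = 3 each), with a log2 fold change of -0.06 ± 0.04 (SE, adjusted p = 0.639 by edgeR). The FOXO gene daf-16 (I:10750498-10776703) had 186, 236 and 225 CPM in the libraries labelled as gtr-1 RNAi, against 177, 224 and 216 CPM in EV libraries. It was higher in each library labelled gtr-1 RNAi than in its batch partner by nearly the same amount, with log2 ratios of 0.07, 0.08 and 0.06. Means were 215 ± 26.4 CPM in the libraries labelled as gtr-1 RNAi and 205 ± 25.2 CPM in EV libraries (SD, n = 3 each), with a log2 fold change of 0.07 ± 0.03 (SE; 95% interval -0.01 to 0.15). edgeR gave an unadjusted p of 0.079 for daf-16 and an adjusted p of 0.514.

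The precision differed between ligands and core. Standard errors of the log2 fold change were 0.14 to 0.58 for the 26 tested ligands (median 0.26) and 0.03 to 0.12 for the 8 core genes (median 0.05). For the 7 core genes other than akt-2, every 95% interval of the fold lay within 0.828 to 1.17, and with akt-2 included the lower end was 0.70. The intervals of the ligands reached from 0.213 to 3.13. 8 members share exon sequence with a gene on the other strand, among them ins-34, ins-37, age-1, pdk-1, akt-1 and daf-16, and the sources used here do not say whether the counting was by strand.

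More insulin genes were called between batches than between treatments. Libraries of batch 2 were compared with those of batches 3 and 4 in the same edgeR fit, with treatment held as a term. The comparison was chosen after the data had been seen. Its error is the spread left within batches after treatment, which leaves out the difference between batches 3 and 4. Batch 2 is a single batch, so p-values of this comparison do not measure the spread between batches. Of the 8 core genes 6 fell in batch 2 and 1 rose, and of the 26 tested ligands 4 rose and 0 fell (edgeR adjusted p under 0.05). Over all genes, 25.7% were called higher in batch 2 and 27.7% lower, so that calls in this comparison were frequent, and the difference between ligands and core genes was not tested. Of the ligands 22 of 26 had a log2 difference above 0, against 57.4% of all genes, and the median was 0.56 for ligands, -0.33 for core genes and 0.16 for all genes. That overall median moved to 0.08 with DESeq2 size factors, 0.23 with no filter and 0.10 with a minimum count of 50, and the direction of every called core gene was the same under each.

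daf-18 averaged 521 CPM in batch 2 and 819 CPM in batches 3 and 4 (2 and 4 libraries), a log2 difference of -0.65 ± 0.04 (SE, adjusted p = 0.00141 by edgeR). age-1 averaged 96.7 CPM in batch 2 and 137 CPM in batches 3 and 4, a log2 difference of -0.50 ± 0.04 (adjusted p = 0.00141). pdk-1 (-0.55 ± 0.09), akt-1 (-0.36 ± 0.05), daf-16 (-0.31 ± 0.03) and daf-2 (-0.29 ± 0.05) fell as well (edgeR adjusted p = 0.00202 to 0.00651 for these 4). For these 6 genes both batch 2 libraries lay below all 4 other libraries. sgk-1 ran the other way, with 20.6 CPM in batch 2 and 14.1 CPM in batches 3 and 4, a log2 difference of 0.54 ± 0.10 (edgeR adjusted p = 0.00773). akt-2 was not called, at 0.21 ± 0.12 (edgeR adjusted p = 0.2). Without batch 4, the calls of daf-2 and sgk-1 were lost (edgeR adjusted p = 0.0506 and 0.064).

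The ligands that rose in batch 2 were low in counts. ins-4 averaged 1.65 CPM in batch 2 and 0.792 CPM in batches 3 and 4, a log2 difference of 1.07 ± 0.28 (SE, adjusted p = 0.0255 by edgeR). ins-1 averaged 2.35 CPM in batch 2 and 1.32 CPM in batches 3 and 4, a log2 difference of 0.88 ± 0.25 (adjusted p = 0.0351). For ins-1 and ins-4 both batch 2 libraries lay above the 4 others, as they did for ins-8 (1.41 ± 0.39, adjusted p = 0.0307) and ins-27 (0.63 ± 0.21, adjusted p = 0.0496). DESeq2 called none of these 4 ligands, and its 1 call upward was sgk-1, against 17.2% of all genes higher and 29.3% lower. It called 7 members lower, the 6 core genes and ins-7. None of the 4 kept its edgeR call in every one of 8 fits that left out a library or a batch pair: ins-27 kept it in 0 (log2 difference 0.33 to 0.87), ins-8 in 2 (0.80 to 1.88), ins-1 in 3 (0.47 to 1.21) and ins-4 in 3 (0.82 to 1.28). All 4 calls were lost without batch 4, where ins-33 was the 1 member called higher. They were also lost without the batch 4 library labelled gtr-1 RNAi, the batch 3 EV library or the batch 4 EV library, where the 2 members called higher were ins-33 and sgk-1. ins-19 had a log2 difference of -0.69 ± 0.43 and was not called (edgeR adjusted p = 0.221). It was called lower in batch 2 without the batch 3 pair (-0.91, edgeR adjusted p = 0.00969), where 25.2% of all genes were lower. It was also called without the batch 3 library labelled gtr-1 RNAi (-1.10, 0.0445), where 24% were lower. Without the batch 2 library labelled gtr-1 RNAi, batch 2 is the EV library alone, and the log2 difference was -1.61. In batches 2, 3 and 4 ins-19 had 7.003, 5.34 and 7.84 CPM in the libraries labelled as gtr-1 RNAi and 7.24, 22.9 and 21.2 CPM in EV libraries. All 10 germline and oocyte markers were lower in batch 2 (edgeR adjusted p under 0.05; median log2 difference -0.63), and their summed CPM were 6336, 9386 and 9850 in the libraries labelled as gtr-1 RNAi and 6754, 9502 and 9685 in EV libraries of batches 2, 3 and 4. Of 9 tested sperm markers 6 were called higher and 0 lower (median 2.69), and of 9 for intestine also 6 and 0 (median 0.60). For body wall muscle 7 of 10 were called higher and 0 lower (median 0.38), and for neurons 6 of 10 and 1 (median 0.52). Over all genes, edgeR called 25.7% higher and 27.7% lower in batch 2, with a median of 0.16. Of 5 embryo markers 0 were called. The part of these tissues in the batch difference of the insulin genes was not tested.

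**Figure D4:**
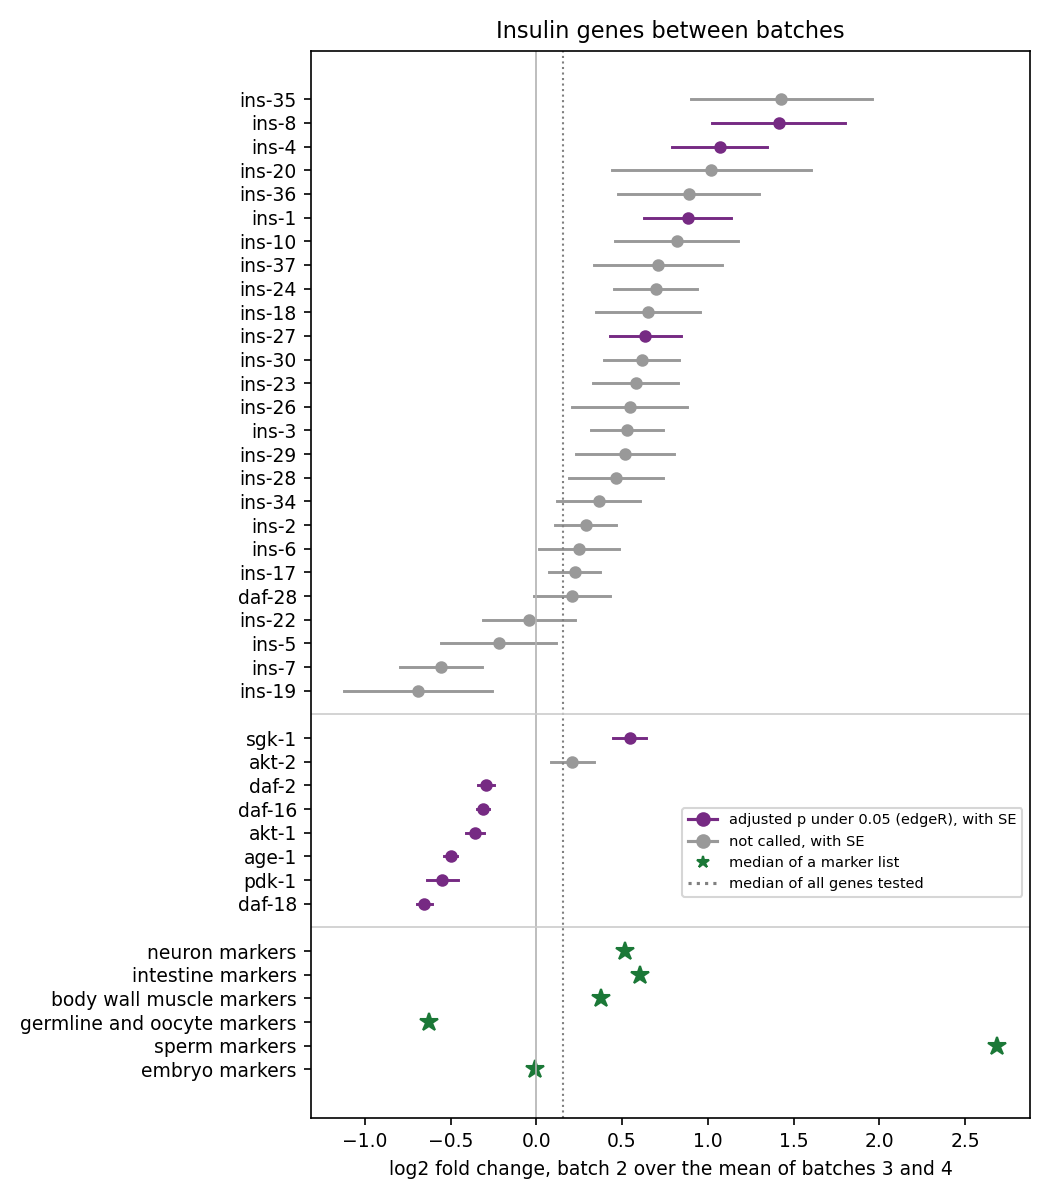
Log2 difference of each tested insulin gene, batch 2 over the mean of batches 3 and 4, with SE bars. Purple points have an edgeR adjusted p under 0.05, stars give the medians of 6 tissue marker lists, from -0.63 (germline and oocyte) to 2.69 (sperm), and the dotted line is the median of all genes (0.16).

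Genes that act around the core were described from lists, and edgeR called 0 members of any of them at an adjusted p under 0.05 between the libraries labelled as gtr-1 RNAi and EV. Of 9 adaptors and regulators of the cascade 8 were tested, and 0 passed an unadjusted p under 0.05 by edgeR or an adjusted one by DESeq2. The smallest p belonged to rict-1, the Rictor subunit of TORC2, at a log2 fold change of 0.08 ± 0.03 (SE, adjusted p = 0.486 by edgeR), and aap-1, the adaptor subunit of AGE-1, had -0.04 ± 0.04. Of 15 partners and regulators of DAF-16, likewise, 0 passed by either tool. Of these 15, 11 lay above 0, against 41.6% of all genes, with a median of 0.01, against -0.03 over all genes. prmt-1, an arginine methyltransferase that modifies DAF-16, had -0.11 ± 0.05 (SE, adjusted p = 0.486 by edgeR).

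Of 11 genes for the processing and release of peptides, an unadjusted p under 0.05 was reached by 2 upward and 1 downward, against 4.99% and 5.68% of all genes. aex-5, a proprotein convertase, had 13.2, 11.1 and 8.51 CPM in the libraries labelled as gtr-1 RNAi, against 10.3, 5.83 and 6.58 CPM in EV libraries. It was higher in each library labelled gtr-1 RNAi than in its batch partner, and the groups overlapped. The log2 fold change of aex-5 was 0.55 ± 0.16 (SE, adjusted p = 0.346 by edgeR, unadjusted 0.0162), and its exons overlap maph-1.1 and str-245 on the other strand. ida-1, a dense core vesicle protein, averaged 64.7 ± 15.2 CPM in the libraries labelled as gtr-1 RNAi and 52.7 ± 14.4 CPM in EV libraries (SD, n = 3 each), with a log2 fold change of 0.30 ± 0.10 (SE, adjusted p = 0.4 by edgeR). asna-1, an ATPase needed for insulin secretion, had -0.10 ± 0.03 (SE, adjusted p = 0.437 by edgeR).

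Genes reported as induced or repressed targets of DAF-16 were described from lists chosen with earlier results of these data known. Their counts are therefore descriptive, and the activity of DAF-16 was not tested. Of 19 induced targets 18 were tested, and at an unadjusted p under 0.05 edgeR had 1 higher and 8 lower, against 4.99% higher and 5.68% lower of all genes. Their median log2 fold change was -0.19, against -0.03 over all genes. DESeq2 called 1 of them higher and 3 lower, against 1.57% and 0.619% of all genes. fat-5, a palmitate desaturase, averaged 67.4 ± 0.84 CPM in the libraries labelled as gtr-1 RNAi and 98.3 ± 15.6 CPM in EV libraries (SD, n = 3 each), and the groups did not overlap. Its log2 fold change was -0.53 ± 0.10 (SE), with an adjusted p of 0.167 by edgeR and 0.000162 by DESeq2. ctl-2, the peroxisomal catalase, had -0.65 ± 0.07 (SE, adjusted p = 0.0762 by edgeR), and mtl-2, a metallothionein, had 0.70 ± 0.10 (SE, adjusted p = 0.103 by edgeR). tps-1, a trehalose phosphate synthase, had 5.61, 0.304 and 0.231 CPM in the libraries labelled as gtr-1 RNAi, against 25.9, 1.87 and 0.273 CPM in EV libraries, with an edgeR adjusted p of 0.215. It was highest in batch 2 in both groups, and its log2 ratio was -0.21 in batch 4. Of 10 repressed targets 2 lay higher and 0 lower with an unadjusted p under 0.05 by edgeR, against the same 4.99% and 5.68%, with a median of 0.15. DESeq2 called 1 higher, vit-2, against 1.57% of all genes. vit-2, a vitellogenin made in the intestine, had a log2 fold change of 0.57 ± 0.14 (SE). The summed intestine markers given above were also higher, in the direction of vit-2 and mtl-2 and opposite to the median of the induced targets. The part of the intestine in these values was not tested.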

How the data were processed

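The 6 libraries, from messenger RNA of pools of whole worms, were made with a stranded kit, per the labels' protocols. The submitters' processing notes list HTSeq 2.01, TopHat2 2.1.1, DESeq2 1.36.0, cutadapt 2.10 and the build WBcel235, with no settings or order. The counts the authors deposited are whole numbers per gene for 22416 of 46934 rows. The normalized signal the authors deposited (counts divided by a size factor) and the batch-corrected score values the authors deposited were not used in any test.

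Genes were compared with edgeR 4.0.16 in R 4.3.3: 15519 genes passed filterByExpr (minimum count 10), libraries were scaled by TMM, and the quasi-likelihood test had the batch as a block (2 residual and 3.16 prior degrees of freedom). Adjustment was by Benjamini and Hochberg over all tested genes, with calls at an adjusted p under 0.05. The SE of a log2 fold change is its size divided by the root of F. Intervals are at 95%. After TMM, CPM give counts relative to library size, and ratios within a batch are of CPM with a prior count of 2. Coordinates and exon lengths are from Ensembl release 115 of WBcel235. The edgeR tests of treatment and batch and the DESeq2 test of treatment were also tried on simulated counts. There, at an adjusted p under 0.05, edgeR recovered 43.9% of 1.5-fold, 50.8% of 2-fold and 96.7% of 4-fold treatment changes. For changes of these sizes in batch 2 it recovered 26.9%, 56.7% and 89.2%. These shares pool genes of all levels, and recovery among ligands or core genes alone was not computed. The genes named with a value in every library are gtr-1, the core genes, the 8 ligands with the highest mean CPM, reported agonists and antagonists, and members with a p under 0.05. Up to 4 genes with the smallest p are named from other lists. The members and lists were chosen with earlier results of these data known.

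Groups and batches came from the labels, which do not say whether the pools were grown separately, so p-values measure only the spread between these libraries. Deviations from the group mean correlated across genes at r = 0.71, 0.47 and 0.66 between libraries of the same batch and at -0.71 to 0.52 between libraries of different batches. Genes are not independent replicates. Libraries of a group differed from each other with chi-square values per degree of freedom of 23.4 to 145, so none was a copy. DESeq2 1.42.0 served as an alternative, beside other filters, scaling and left-out libraries.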

Additional observations from a re-analysis of the deposited data

How the results depend on the processing

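No member was called when libraries labelled as gtr-1 RNAi were set against EV under any other filter, scaling or tool tried, nor at an adjusted p under 0.1. With no replicate block the log2 fold change of ins-19 was -1.35, and those of ins-34 and ins-35 turned to -0.013 and -0.0245. That of sgk-1 turned to 0.00397 with no filter and 0.0224 at a minimum count of 50. At an unadjusted p under 0.05, 1 member was higher with no filter (ins-39), against 4.39% of all genes. At a minimum count of 50, 1 was higher (daf-16), against 1013 of 12185 genes. With DESeq2 size factors 2 were lower (ins-19 and ins-37), against 3.81% of all genes. In the batch comparison 1 member was higher with DESeq2, against 17.2% of all genes. At an edgeR adjusted p under 0.1, 9 were higher. The share of all genes at that limit was not computed and is at least the 25.7% called higher at 0.05. The causes were not tested.

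When libraries or batch pairs were left out in turn, 0 members were called higher and 0 to 1 lower (ins-19, without batch 2 or either of its libraries). At an unadjusted p, 0 to 1 were higher (1 without batch 2, either of its libraries or batch 3) and 0 to 3 lower (3 without batch 2 or either of its libraries, 0 without batch 4 or any single library of batch 3 or 4). Without batch 2, its library labelled gtr-1 RNAi or its EV library, 9.58%, 9.56% and 9.24% of all genes were lower at that p. Of all genes, 1656 of 15147 were higher without batch 2 and 587 of 16177 without batch 3. The log2 fold change of gtr-1 ranged from 0.05 to 0.27. In the batch comparison 1 to 7 members were higher and 5 to 8 lower, from the fit without batch 4 to that without batch 3. Of all genes, 1363 of 16134 were higher and 20.3% lower without batch 4. Without batch 3, 3958 of 16177 were higher and 25.2% lower. Log2 fold changes that turned sign ranged from -0.21 to 0.32 (ins-34), -0.0589 to 0.27 (daf-28), -0.15 to 0.0615 (ins-27), -0.0428 to 0.42 (ins-1), -0.34 to 0.0839 (ins-4), -0.0567 to 0.45 (ins-18), -0.20 to 1.13 (ins-35), -0.0743 to 0.00998 (daf-18), -0.00156 to 0.0752 (daf-2), -0.17 to 0.0796 (pdk-1) and -0.077 to 0.0665 (sgk-1). In the batch comparison akt-2 ranged from -0.0857 to 0.43. That comparison has no value without the batch block or without batch 2. Intervals were wider for most ligands than for the core, and the part of depth in this was not tested.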
